A study of Mus musculus with 3 samples.

Results

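The genes described here are 10 genes of extracellular proteolysis, namely 6 matrix metalloproteinases (Mmp2, Mmp9, Mmp12, Mmp13, Mmp14 and Mmp19), 2 tissue inhibitors of metalloproteinases (Timp1 and Timp2), the urokinase gene Plau and the urokinase receptor gene Plaur. They were chosen by name, and all 10 were among the 36835 genes with a listed value in each of the 3 libraries. A value was counted even where it gave no level at all. The study asked whether Foxp3 mRNA is present in macrophages of mouse renal tumors, and for this it sequenced RNA of type-2 macrophages (M2), type-1 macrophages (M1) and CD4 T lymphocytes (CD4). All cells came from BALB/C mice given cells of the BALB/c renal carcinoma line Renca in the kidney, where the study's text on this experiment names Renca Ch+ L+, its derivative that carries Cherry and luciferase. The labels give both day 14 and day 16 as the day of harvest. M2 were sorted as F4/80 high and CD11b intermediate, M1 as F4/80 intermediate and CD11b high, and CD4 T cells as TCR beta+ and CD4+. The 2 macrophage subsets were sorted from tumors, 30 in number, and the extraction notes place the CD4 T cells in spleens, 4 in number, while another label names the tumor. Each subset was 1 library of pooled cells, so that no difference below has a replicate check, and no p-value is given. RNA of a sorted pool also cannot tell fewer cells that express a gene from less RNA in each cell.

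Matrix metalloproteinases are zinc-dependent enzymes that are made as inactive proenzymes and cleave collagens, elastin and other proteins around cells. TIMPs bind their active sites and block them. Urokinase, held at the cell surface by its receptor, turns plasminogen into plasmin, which degrades fibrin and can activate several metalloproteinases. Macrophages in tumors are a well known source of these enzymes.

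Levels are in FPKM, that is, fragment counts divided by transcript length and by library size, which allows genes to be compared within a library. The depth behind them was estimated from the smallest values as 61500000 fragments for the M1-labelled library, 60100000 for M2 and 72700000 for CD4, the last with a range of 60200000 to 72900000 over the smoothing widths tried. Marker genes went against 2 of the 3 labels. All 20 T-cell markers were highest in the M2-labelled library, where Cd3e was at 126 FPKM, against 0.141 in the CD4-labelled one and 0.131 in the M1-labelled one. All 15 macrophage markers were lower there than in either other library, with Csf1r at 15.3 FPKM in the M2-labelled library, 519 in the CD4-labelled one and 279 in the M1-labelled one. Each library is called here by its label alone, and every direction below rests on the labels. Of other cell types, 10 kidney epithelium markers summed to 122 FPKM in the M1-labelled library, 205 in the M2-labelled one and 97.5 in the CD4-labelled one. In the same order of libraries, 2, 6 and 2 of them were highest, and Cdh16 was at 33.4, 87.8 and 46 FPKM. Cdh1 went another way, at 48.2, 6.69 and 3.84 FPKM, and made up much of the sum in the M1-labelled library. The sums of 8 endothelium markers were 8.25, 40.4 and 8.14 FPKM, with Egfl7 listed at 0 in each and Vwf at 0 in the M2-labelled library. Pecam1, which other cells such as leukocytes also express, made up 1.80, 35.0 and 1.42 FPKM of these sums.

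Most of the 10 genes were lowest in the M2-labelled library, which held the lowest level of 8 of them and the highest of 0. The share of all genes lowest in that library was not computed. The M1- and CD4-labelled libraries each held the highest level of 5. In the M1-labelled library the order from the top was Mmp12, Plau, Plaur, Timp2 and Mmp14. In the CD4-labelled one it was Plau, Timp2, Mmp12, Mmp14 and Mmp13. Neighbours in these orders have no replicate spread to be set against.

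**Figure D1:**
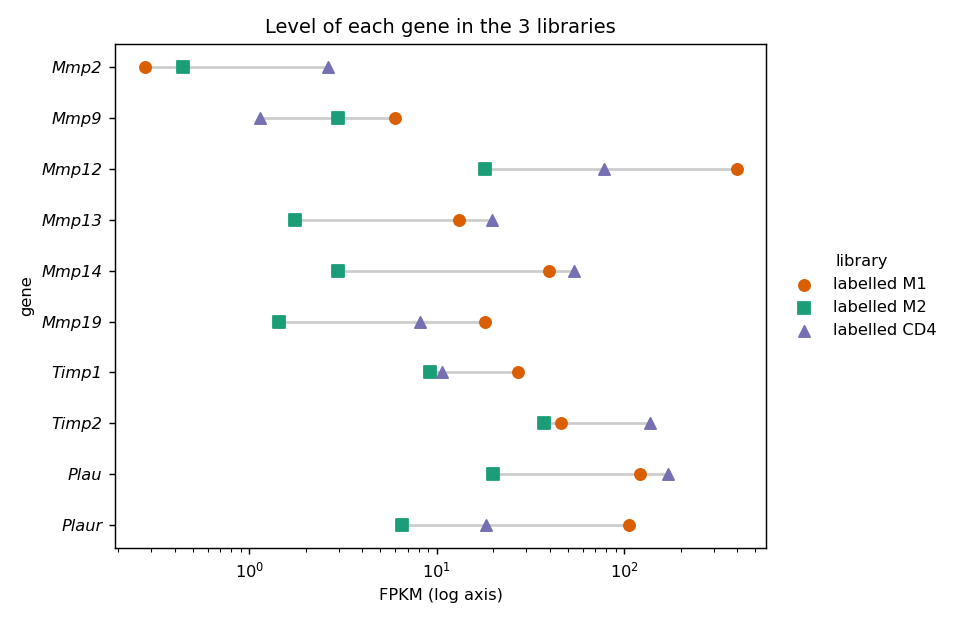
Level of each of the 10 genes in FPKM on a log axis, with 1 point for each library and a grey line from the lowest to the highest. The point of the M2-labelled library is the leftmost for 8 genes, the exceptions being Mmp2 and Mmp9.

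Mmp12 encodes macrophage elastase, and its level in the M1-labelled library was the highest value of any of the 10 genes. It stood at 398 FPKM in the M1-labelled library, 78.3 in the CD4-labelled one and 18.0 in the M2-labelled one. The first value was above 99.5% of the protein-coding genes detected in its library, the second above 96.2% and the third above 79.7%. The M1-labelled library was thus 5.08 times the CD4-labelled one and 22.1 times the M2-labelled one, the widest span among the 10 genes. The gene lies on the forward strand of chromosome 9 from 7344381 to 7369499 in build NCBIM37, which is also called mm9 and is the build of the authors' alignment.

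The annotation lists 7 Mmp12 transcripts, and most of the level was assigned to one that does not encode the full enzyme. Mmp12-002, of the class nonsense-mediated decay, held 100% of the level in the rows used in the M1- and CD4-labelled libraries and 77.1% in the M2-labelled one. The rest in the M2-labelled library was in Mmp12-004, at 4.12 FPKM. The full-length coding transcript Mmp12-001 was listed at 0 in each library. An exact 0 in these values can be a failed estimate, and 2002 of the 2060 bases of Mmp12-002, or 97.2%, also lie in Mmp12-001. The 58 bases that set them apart are at the start of exon 2, at chr9:7348527-7348584, where Mmp12-002 begins its exon further upstream. They also lie within Mmp12-005, a transcript with retained introns that was listed at 0. As 58 is not a multiple of 3, the reading frame shifts and ends after 64 codons, against 473 in Mmp12-001. The exon is shown from its first base to that stop codon, at chr9:7348527-7348607 on the forward strand of NCBIM37, because most of the Mmp12 level was assigned to the model that contains it. The capitals mark the 58 bases absent from Mmp12-001, and the last 3 bases are the stop codon.
Mmp12-002 exon 2: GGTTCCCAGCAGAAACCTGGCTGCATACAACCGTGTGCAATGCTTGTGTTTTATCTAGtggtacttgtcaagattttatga

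Since the transcripts share most of their bases, the level is described as one of the gene. With protein-coding transcripts alone, Mmp12 kept, in the rows used, only the 4.12 FPKM of the M2-labelled library. It was listed at 0 in the others, which reverses both of its differences from that library. A further row of Mmp12-003, itself protein-coding but outside the rows used, held 119 FPKM in the M1-labelled library. That value exceeds the 4.12 FPKM, so the reversal against the M1-labelled library holds only in the rows used.

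**Figure D2:**
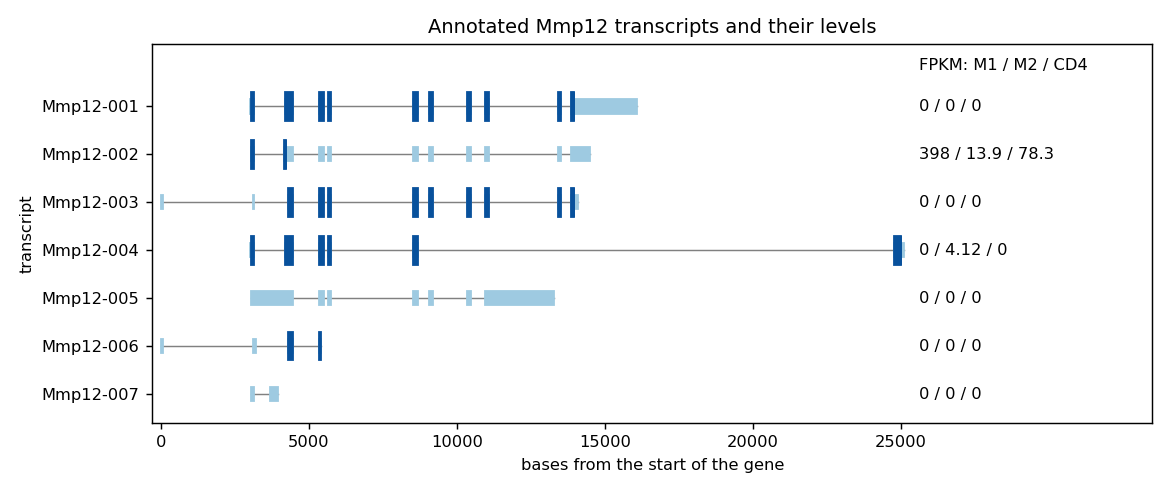
The 7 annotated Mmp12 transcripts drawn to scale in bases from the start of the gene, with exons in light blue and annotated coding sequence, the stop codon included, in dark blue. At the right are the levels in FPKM in the libraries labelled M1, M2 and CD4, in which Mmp12-002 held 398, 13.9 and 78.3.

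Mmp14 and Mmp13 were higher in both other libraries than in the M2-labelled one. Mmp14, a membrane-anchored metalloproteinase that activates the Mmp2 proenzyme at the cell surface, was at 54.2 FPKM in the CD4-labelled library, 39.7 in the M1-labelled one and 2.97 in the M2-labelled one. The first 2 differed by 1.37 times, while they were 18.2 and 13.3 times the level in the M2-labelled library. Mmp13, the main rodent interstitial collagenase, was at 19.7 FPKM in the CD4-labelled library, 13.1 in the M1-labelled one and 1.74 in the M2-labelled one. Its ratios to the M2-labelled library were 11.3 and 7.54. Both genes thus had the same order of libraries. Mmp14 lies on chromosome 14 from 55050441 to 55060095, and Mmp13, like Mmp12, on chromosome 9, from 7272514 to 7283333, both on the forward strand of the same build. A further row of Mmp14, outside those used, held 21.8 FPKM in the CD4-labelled library.

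Mmp19 had another order. It encodes a secreted metalloproteinase and was at 18.0 FPKM in the M1-labelled library, 8.12 in the CD4-labelled one and 1.44 in the M2-labelled one. The M1-labelled library was 2.22 times the CD4-labelled one and 12.5 times the M2-labelled one. The gene lies on the forward strand of chromosome 10, from 128228009 to 128237880.

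The 2 gelatinases were the lowest of the metalloproteinases in the M1- and CD4-labelled libraries. Mmp2, gelatinase A, was at 2.63 FPKM in the CD4-labelled library, 0.441 in the M2-labelled one and 0.276 in the M1-labelled one. The lowest of these values corresponds to about 52 fragments at the estimated depth and the highest to about 580. Mmp2 was the only one of the 10 genes with its lowest level in the M1-labelled library, and the size of the gap depends on the rows used. With all of its rows summed it was at 1.21 FPKM there and 1.23 in the M2-labelled one, and the CD4-labelled library, at 2.63, was within 2-fold of both on the scale of FPKM + 1. The gene lies on the forward strand of chromosome 8, from 95351227 to 95377316. Collagen genes followed the same order of libraries, with Col1a1 at 7.96, 2.02 and 1.58 FPKM and Col3a1 at 10.8, 3.59 and 2.34. Of 10 fibroblast markers, 6 were highest in the CD4-labelled library, 2 in the M2-labelled one and 2 in the M1-labelled one. Their summed level was 249, 54.9 and 575 FPKM, of which Fn1 made up 206, 22.2 and 558. Pdgfrb was listed at 0 in the CD4-labelled library. The part of such cells in the Mmp2 level was not tested.

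Mmp9, gelatinase B, was at 5.99 FPKM in the M1-labelled library, 2.98 in the M2-labelled one and 1.14 in the CD4-labelled one. It was the only one of the 10 genes with its lowest level in the CD4-labelled library, at 0.191 times the M1-labelled one. The gene lies on the forward strand of chromosome 2, from 164766280 to 164781350. Mmp9 is also stored in neutrophil granules, and so is Mmp8, the neutrophil collagenase, which was at 15.9, 1.08 and 1.38 FPKM. Neutrophil markers did not follow this order. Of 12 such markers, Mmp8 included, 9 were highest in the M2-labelled library, where their summed level was 265 FPKM against 91.6 in the M1-labelled one and 45.0 in the CD4-labelled one. Most of the sum in the M2-labelled library came from S100a8 and S100a9. S100a8 was at 84.5 FPKM there, 19 in the M1-labelled one and 4.17 in the CD4-labelled one, and S100a9 at 110, 28.1 and 6.08. Ly6g was near 0 in each, at 0.0482 FPKM in the M1-labelled library, 0 in the M2-labelled one and 0.0916 in the CD4-labelled one. The part of neutrophils in these levels was not tested.

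The 2 inhibitors differed from each other in where they were high. Timp1, an inducible inhibitor, was at 27.0 FPKM in the M1-labelled library, 10.7 in the CD4-labelled one and 9.21 in the M2-labelled one. The last 2 differed by 1.16 times. Its level was shared between 2 protein-coding transcripts of 6 exons each, with lengths of 883 and 833 bases. Timp1-002, the longer, accounted for 46.8% in the M1-labelled library, 62.9% in the M2-labelled one and 56.5% in the CD4-labelled one. Timp2, which also takes part in activation of Mmp2 by Mmp14, was at 137 FPKM in the CD4-labelled library, 46.2 in the M1-labelled one and 37.2 in the M2-labelled one. Among the 10 genes, Timp2 was the highest in the M2-labelled library, above 91.5% of the protein-coding genes detected there. Its levels in the M1- and M2-labelled libraries differed by 1.24 times. Timp1 spans 20447292 to 20451861 of chromosome X on its forward strand, and Timp2 lies on the reverse strand of chromosome 11, from 118162383 to 118217054.

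The balance of the sums also differed. The 6 metalloproteinases summed to 475 FPKM in the M1-labelled library, 164 in the CD4-labelled one and 27.6 in the M2-labelled one. The 2 TIMPs summed to 73.2, 148 and 46.5 FPKM in the same order. The ratio of the sums was therefore 6.49 in the M1-labelled library, 1.11 in the CD4-labelled one and 0.593 in the M2-labelled one. Mmp12 made up 83.8%, 47.7% and 65.3% of the metalloproteinase sum, and without it the ratios were 1.05, 0.579 and 0.206. The ratios cover only the chosen genes in the rows used. Most of the Mmp12 level there was assigned to Mmp12-002, which does not encode the full enzyme. Further rows, such as that of Mmp12-003 at 119 FPKM in the M1-labelled library, are outside the sums. The 17 other metalloproteinases summed to 26 FPKM in the M1-labelled library, 19.5 in the CD4-labelled one and 24.5 in the M2-labelled one. The 3 other inhibitors summed to 1.12, 3.86 and 1.41 FPKM. In the M2-labelled library the metalloproteinases left out thus nearly equalled the 6 counted, and its ratio depends on the genes chosen. All are ratios of RNA levels, and protein was not measured here.

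Urokinase was the highest or next to the highest of the 10 genes in each library, while its receptor came next after it only in the M1-labelled one. Plau was at 172 FPKM in the CD4-labelled library, 121 in the M1-labelled one and 20.0 in the M2-labelled one. Plaur was at 106 FPKM in the M1-labelled library, 18.3 in the CD4-labelled one and 6.50 in the M2-labelled one. The CD4- and M1-labelled libraries were thus 1.43 times apart for the enzyme and 5.81 times apart, in the other direction, for its receptor. Plau lies on chromosome 14 from 21655884 to 21662610 and Plaur on chromosome 7 from 25247519 to 25260892, both on the forward strand. Further rows outside those used held 31.8 FPKM of Plau in the CD4-labelled library, and 1.58 and 1.43 FPKM of Plaur in the M2-labelled one. In the rows used, the ratio of Plau to Plaur was 9.41 in the CD4-labelled library, 3.07 in the M2-labelled one and 1.14 in the M1-labelled one. The first 2 depend on the choice of rows.

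For counts across genes, a difference was taken as the ratio of FPKM + 1, with 2-fold as the limit, a scale on which changes of low genes appear smaller. Between the M2- and M1-labelled libraries, 7 of the 10 genes were lower by at least 2-fold in M2 and 0 were higher, the other 3 being Mmp2, Mmp9 and Timp2. Over all 36835 genes the shares were 4.90% lower and 5.73% higher. Over the 12443 genes that reached 1 FPKM in either library, of which 9 belong to the set, they were 14.5% and 17.0%. The median log2 ratio of FPKM + 1 was -2.45 over the 10 genes and 0.10 over the 12443.

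Between the M2- and CD4-labelled libraries, 8 of the 10 genes were lower in M2 and 0 were higher, the exceptions being Mmp9 and Timp1. With all rows summed, Mmp2 and Plaur were within 2-fold as well, at -0.70 and -0.88 on the log2 scale. The shares were 5.17% and 5.85% over all genes, and 15.3% and 17.3% over the 12438 genes that reached 1 FPKM in either, which include all 10. The median log2 ratio was -1.88 over the 10 genes and 0.12 over the 12438. Both comparisons use the one M2-labelled library, and they are not independent of each other. Macrophage markers moved with these differences. All 15 were lower by at least 2-fold in the M2-labelled library in both comparisons, with median log2 ratios of -2.71 to M1 and -4.34 to CD4. The summed level of the 15 was 8770 FPKM in the M1-labelled library, 14600 in the CD4-labelled one and 763 in the M2-labelled one. The number of macrophages in each library was not measured, and its part in the differences was not tested.

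Between the CD4- and M1-labelled libraries, both high in macrophage markers, the genes went both ways. In the CD4-labelled library, 5 were lower by at least 2-fold (Mmp9, Mmp12, Mmp19, Timp1 and Plaur), 2 were higher (Mmp2, in the rows used, and Timp2), and Mmp13, Mmp14 and Plau were within 2-fold. The shares were 2.28% lower and 2.20% higher over all genes, and 7.24% and 6.98% over the 11587 genes that reached 1 FPKM in either. The log2 ratios ran from -2.48 for Plaur to 1.55 for Timp2. Of the genes behind the sorting markers, Emr1 (F4/80) was at 215 FPKM in the CD4-labelled library and 45.3 in the M1-labelled one, and Itgam (CD11b) at 201 and 299.

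**Figure D3:**
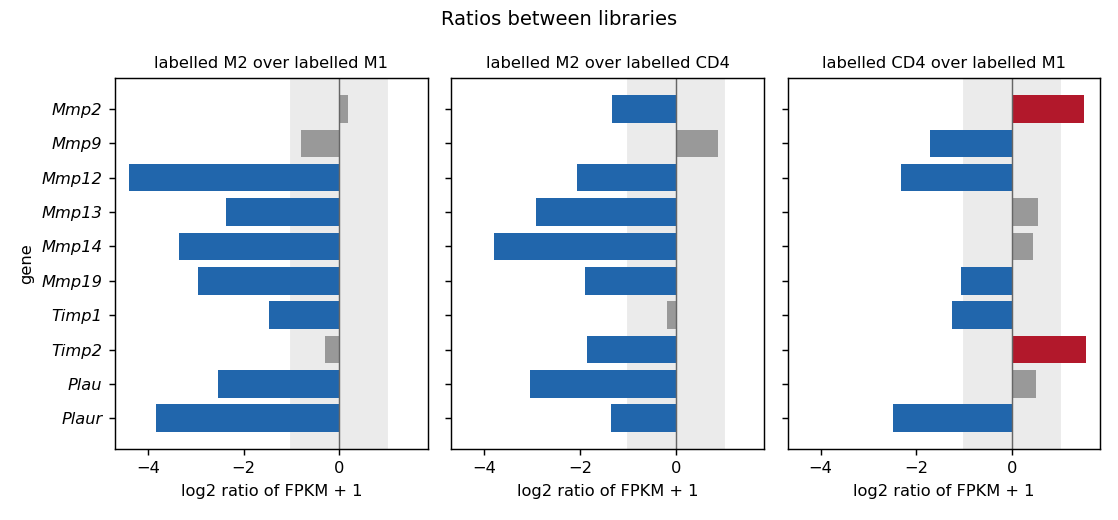
Log2 ratio of FPKM + 1 for each gene in the 3 comparisons, in blue where lower and in red where higher by at least 2-fold, with the band within 2-fold in grey. Blue bars number 7, 8 and 5 from left to right, and the red bars, Mmp2 and Timp2, appear only in the CD4-labelled library over the M1-labelled one.

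The other genes of the system were examined by lists, 38 of 39 genes having a listed value in each library. Some of these values gave no level at all in any library. Of the 17 other metalloproteinases, 10 stayed under 1 FPKM in all 3 libraries, and Mmp8 and Mmp10 exceeded 10 FPKM in one. Mmp8, given above, was 14.7 times as high in the M1-labelled library as in the M2-labelled one. Mmp10, stromelysin 2, was highest in the M2-labelled library, at 10.4 FPKM against 5.05 in the M1-labelled one and 5.42 in the CD4-labelled one. In all, 2 of the 17 were higher and 2 lower by at least 2-fold in the M2-labelled library than in the M1-labelled one. Over all 36835 genes these shares were 5.73% and 4.90%, and over those that reached 1 FPKM in either, 17.0% and 14.5%. Of the 3 other inhibitors none reached 10 FPKM. Timp3, which is bound to matrix, was the highest of them, at 3.70 FPKM in the CD4-labelled library.

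Of 7 further genes of plasminogen activation, 3 were lower and 1 higher by at least 2-fold in the M2-labelled library than in the M1-labelled one. The shares over all genes were 4.90% and 5.73%, and over those that reached 1 FPKM in either library 14.5% and 17.0%. None of the 7 was past 2-fold in either direction between M2 and CD4, where the shares over all genes were 5.17% lower and 5.85% higher. Over those that reached 1 FPKM in either they were 15.3% and 17.3%. Anxa2 and S100a10 encode the subunits of a cell-surface plasminogen receptor. Anxa2 was at 508 FPKM in the M1-labelled library, 145 in the CD4-labelled one and 102 in the M2-labelled one. The values of S100a10 in the same order were 314, 78.7 and 156 FPKM. Both were highest in the M1-labelled library, as Plaur was. Plat, the tissue-type plasminogen activator, was highest in the M2-labelled library, at 15.0 FPKM against 6.13 in the M1-labelled one and 7.52 in the CD4-labelled one.

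Of 11 partners of these proteins, among them Itgam, which is also in the macrophage list, 5 were lower and 1 higher by at least 2-fold in the M2-labelled library than in the M1-labelled one. Over all genes the shares were 4.90% lower and 5.73% higher, and over those that reached 1 FPKM in either library 14.5% and 17.0%. Lrp1, an endocytic receptor that clears protease complexes, was at 93.8 FPKM in the M1-labelled library, 70.4 in the CD4-labelled one and 8.18 in the M2-labelled one. Furin, the protease that activates Mmp14, was at 47.1, 34.8 and 17.4 FPKM. Itgb2, the beta chain partner of CD11b, was at 285, 95.9 and 99.4 FPKM, and the hyaluronan receptor gene Cd44 at 72.1, 40.2 and 30.2. The exception was Itgb3, the beta chain of the vitronectin receptor, at 13.6 FPKM in the M2-labelled library, 0.466 in the M1-labelled one and 0.255 in the CD4-labelled one. Cd63, a tetraspanin that binds TIMP1, was highest in the CD4-labelled library, at 186 FPKM against 55.2 in the M1-labelled one and 74.8 in the M2-labelled one. Bsg, which encodes the metalloproteinase inducer basigin, lay between 164 and 230 FPKM, and Itgav between 8.81 and 12.0.

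**Figure D4:**
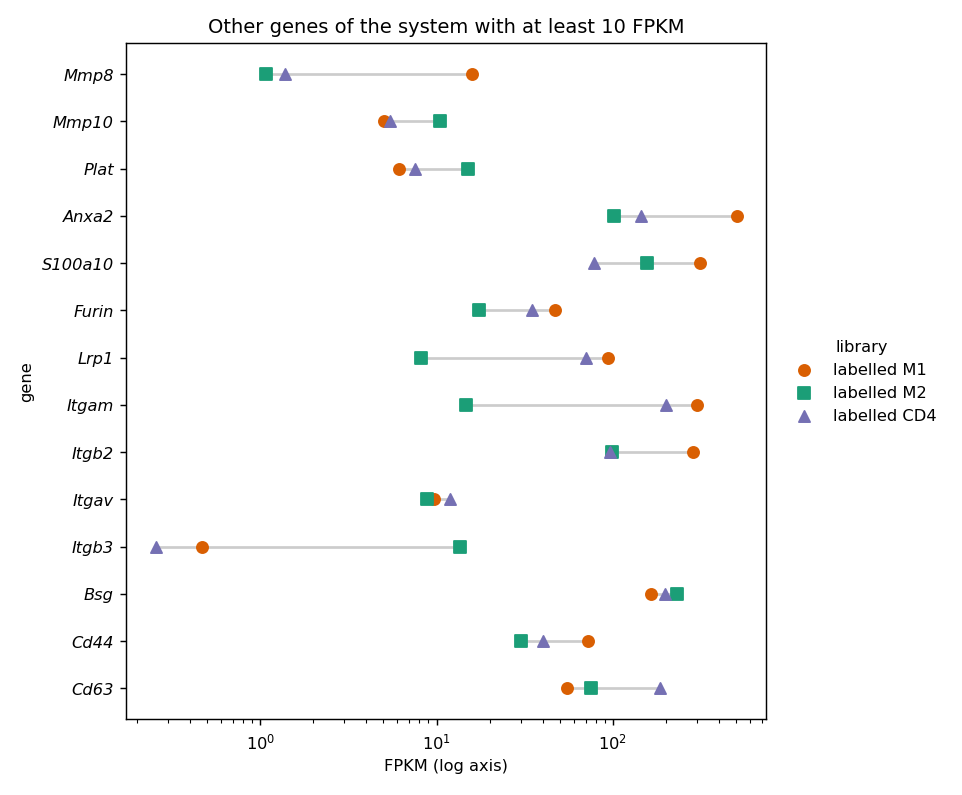
Level in FPKM, on a log axis, of the 14 other genes of the system that reached 10 FPKM in a library, with 1 point for each library. Mmp10, Plat, Itgb3 and Bsg have their highest level in the M2-labelled library.

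Among the 6396 other protein-coding genes with at least 10 FPKM in a library, the gene nearest to each of the 10 was sought by the distance between values of log2(FPKM + 1) over the 3 libraries, too few points for a correlation. Arg1, which encodes arginase, was nearest to Mmp12, at a distance of 0.64, with 321 FPKM in the M1-labelled library, 88.5 in the CD4-labelled one and 12.1 in the M2-labelled one. Adam8, which encodes a metalloproteinase of another family, was nearest to Plaur, at a distance of 0.30, with 120, 21.4 and 7.16 FPKM. Gusb was nearest to Plau at 0.35 and Tpp1 to Timp2 at 0.20, both genes of lysosomal enzymes. Il10ra, the interleukin 10 receptor chain gene, was nearest to Mmp14 at 0.25, and Hk3, a hexokinase gene, to Mmp13 at 0.19. Naip2 was nearest to Mmp19 at 0.14 and Dennd5a to Timp1 at 0.26. Mmp2 and Mmp9 stayed below the 10 FPKM that a compared gene had to reach, which keeps every compared gene at some distance from them. The distances of their nearest, Efcab4a at 1.72 and Il1r2 at 0.72, are in part set by that limit and are not read further. Of the other genes of the set, Mmp12 had 0 genes within a distance of 0.5, Plaur 1, Plau 2, Mmp19 and Timp2 5 each, Mmp14 6, Mmp13 13 and Timp1 15.

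Start regions of the genes were read for 3 motifs on both strands, chosen with the levels known. RefSeq windows of build GRCm38.p6, each from 250 bases before to 50 after a start, were at hand for 6 of the 10 genes, with 7 windows because Mmp12 has 2. The AP-1 motif TGAGTCA was in 3 of the 7, those of Mmp12, Mmp13 and Plaur, against 5.20% of 32851 windows of all genes. The PU.1 motif GAGGAAGT was in 1, for Mmp12, against 3.20%, and TATAAA in 2, for Mmp12 and Mmp13, against 13.6%. The PU.1 match, within chr9:7344279-7344344, was not in the Mmp12 window that held AP-1 and TATAAA but in the other one. TATAAA began after the start in Mmp12 and 16 bases before it in Mmp13. The stretches around the AP-1 motif are shown because these 3 genes were all lowest in the M2-labelled library. As 8 of the 10 genes were lowest there, this does not set them apart. They lie at chr9:7347300-7347364 for Mmp12, chr9:7272449-7272513 for Mmp13 and chr7:24462384-24462448 for Plaur, all on the forward strand, with the motif in capitals. In Mmp13 and Plaur it reads on the opposite strand, as TGACTCA. The motif begins 44 bases before the start in Mmp12, 35 in Mmp13 and 69 in Plaur.
Mmp12: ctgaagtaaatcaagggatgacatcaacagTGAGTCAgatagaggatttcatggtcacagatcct
Mmp13: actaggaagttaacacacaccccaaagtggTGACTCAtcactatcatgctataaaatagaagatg
Plaur: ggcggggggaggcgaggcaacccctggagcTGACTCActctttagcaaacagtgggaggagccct
A match of letters is a description and no evidence of binding, and the 3 genes did not share their highest library, which was the M1-labelled one for Mmp12 and Plaur and the CD4-labelled one for Mmp13.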

How the data were processed

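The authors aligned paired reads of 51 bases to mouse genome MM9 with TopHat 1.4.1 and Bowtie 0.12.8 and estimated transcripts with Cufflinks 2.1.0, guided by Ensembl release 67. The labels also name Cuffdiff. The deposited values are in FPKM, 1 column a library, with a dash in place of some values. How the assemblies were joined is not given in the sources used here. Identifiers were joined to GENCODE for NCBIM37 (Ensembl release 65), in which 97.6% of 92519 were found. Of each identifier the first row with values in all 3 columns was kept, and these were summed per gene. For the 10 genes this used 20 of 34 rows. Ratios were of FPKM + 1. Depth was read from the peak of a smoothed density of low products of FPKM and transcript length, taken as 1 fragment, in coding genes with 1 transcript. A gene of the wider system is not reported here and was left out of its list. The genes, the lists and the processing alternatives were chosen with earlier results of these data known. Named were the 10 genes, transcripts holding at least 10% of a gene, listed genes reaching 10 FPKM, defining markers and the nearest gene by profile. Timp3, Col3a1, Fn1, Pdgfrb, Cdh1, Egfl7, Vwf and S100a9 were named outside this rule after their values were seen. Computations were made in Python 3.11.15 with pandas 2.3.3, numpy 2.4.6, matplotlib 3.10.9 and scipy 1.17.1.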

Additional observations from a re-analysis of the deposited data

Results flagged for a closer look

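Rows outside the main measurement held further levels of 5 of the genes. They were other rows of the same transcript identifiers, each with a dash in place of a value in at least 1 library, and each level given here was above that of 3 fragments at the estimated depth. The largest was a row of Mmp12-003 at 119 FPKM in the library labelled M1, which is 30.0% of the level used there. Mmp12-004 had rows of 0.481 and 0.248 FPKM in the same library. In the library labelled CD4 a further row of Mmp14 held 21.8 FPKM, or 40.1% of the level used, and one of Plau 31.8 FPKM, or 18.5%. In the library labelled M2, Plaur had rows of 1.58 and 1.43 FPKM. Mmp2 had rows of 0.219 and 0.716 FPKM in the library labelled M1 and of 0.789 in that labelled M2, and 2 of these 3 exceeded the level used. What sets these rows apart from those used is not given in the sources used here.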

How the results depend on the processing

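No paired analysis was possible because each subset had 1 library. With 1 library each, leaving out a replicate was not possible either, and depth limits only the lowest levels, such as Mmp2. Of 180 ratios of single genes under other settings, 162 stayed on their side of 2-fold, 16 crossed it and 2 reversed, both of Mmp12.
With protein-coding transcripts only, Mmp12 went to 2.36 on the log2 scale for M2 over M1 and also for M2 over CD4. Thus 1 gene was higher in M2 in each comparison, because the Mmp12 level in the rows used lies in a transcript of another class. The reversal against M1 depends on those rows, as the protein-coding Mmp12-003 held 119 FPKM there in a row not used. With all rows summed, Mmp2 was at 1.21 FPKM in the library labelled M1 and 1.23 in that labelled M2, and 1 gene in place of 2 was higher in CD4 than in M1. Plaur then was within 2-fold between M2 and CD4, at -0.88.
Rescaling to a total of 1000000 lowers all values against the added 1. It left 4 genes lower in M2 than in M1 (7 before), 4 lower in M2 than in CD4 (8 before), and 1 higher and 2 lower in CD4 than in M1 (2 and 5 before). At 4-fold these counts were 6, 4, 0 and 2, and 1 gene, Mmp9, was higher in M2 than in CD4 at 1.5-fold and with a pseudocount of 0.1. Shares over all genes were computed only for the main setting and the minimum of 1 FPKM. Counts under the other settings have none beside them.
For the 38 other genes of the system the counts by 2-fold were 4 higher and 10 lower in M2 than in M1, 1 and 4 for M2 and CD4, and 4 and 4 for CD4 and M1. Over all 36835 genes the matching shares were 5.73% and 4.90%, then 5.85% and 5.17%, then 2.20% and 2.28%. Over the genes that reached 1 FPKM in either library they were 17.0% and 14.5%, then 17.3% and 15.3%, then 6.98% and 7.24%. After rescaling the counts were 0 and 4, then 0 and 2, with 1 higher in CD4. With a pseudocount of 0.1 there were 7 higher in M2 than in M1, 4 higher and 8 lower in M2 than in CD4, and 7 higher in CD4 than in M1. At 1.5-fold 6 were higher and 8 lower in M2 than in CD4. At 4-fold 1 was higher and 4 lower in M2 than in M1, 2 lower in M2 than in CD4, and 0 higher and 1 lower in CD4 than in M1. The highest complete row, scaling by the median ratio and a minimum of 1 FPKM moved none of these counts by over 1.5 times.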
